A study of Mus musculus with 7 samples.

Results

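Fibronectin and 7 other genes that mark the fibroblasts of the meninges and of the perivascular space (Fn1, Dcn, Lum, Ogn, Mgp, Pdgfra, Aldh1a2 and Slc6a13) were followed through read counts of mouse midbrain RNA. They were chosen by symbol, and all 8 were found among the 32531 gene symbols of each file. Libraries came from untreated adult mice of the Stard8-TRAP ES2342 line, which carries the ribosomal protein Rpl10a fused to EGFP under control of Stard8. Every group carries this transgene, and no library from a mouse without it, nor a precipitation without the tag, was analysed here. The 3 IP libraries (replicates 1, 2 and 4) hold RNA of tagged polysomes captured with antibodies against EGFP, in the method known as translating ribosome affinity purification (TRAP). The 4 unbound libraries (replicates 1 to 4) hold the RNA that the beads left behind. Replicate 3 has only its unbound library here. Sex, strain background, age in weeks and any pooling of animals are not given in the sources used.

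Brain fibroblasts are a small population. They lie in the pia, arachnoid and dura, and follow larger vessels into the tissue between the smooth muscle layer and the glial endfeet. They secrete collagens, fibronectin and small leucine-rich proteoglycans, which coat and space collagen fibrils, and the meningeal ones make retinoic acid. Fn1 and Mgp are also made by endothelial and mural cells of vessels, and Pdgfra is also the classic surface marker of oligodendrocyte precursors.

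Counts in genes ran from 52052340 to 76114634 per library. Stard8, whose regulatory sequence drives the tag, measured 388, 440 and 227 CPM (read counts scaled to the effective library size) in IP 1, 2 and 4, and between 3.51 and 4.89 CPM in the unbound libraries. Rpl10a, which the tag also encodes, had 0.999 ± 0.51 as log2 fold change (SE; adjusted p = 0.142), and passed without unbound 2 (adjusted p = 0.0129). Its unbound level ran from 40.5 CPM in unbound 1 to 326 CPM in unbound 2. Within index sequence GTGAAA (IP 4, unbound 3 and 4) its log2 fold change was 1.32. The series is described as profiling neurons, but all 10 pan-neuronal markers were lower in IP (6 without IP 1 and 5 without IP 2). All 12 endothelial, all 12 pericyte and smooth muscle and all 12 microglia and macrophage markers were higher. The midbrain neuron markers summed to 211 to 227 CPM in IP and 217 to 277 CPM in unbound, with tyrosine hydroxylase, Th, at 64.5 ± 3.75 (SD, n = 3) and 59.4 ± 13.4 CPM (SD, n = 4). Of these 10 markers 2 fell and none rose, and none fell without IP 1, IP 2 or unbound 3. The dopamine carrier Slc6a3 fell by 0.82 on the log2 scale (adjusted p = 0.0234). IP 4 stood apart from the other IP libraries. Its pan-neuronal markers summed to 7336 CPM, while IP 1 had 3380 and IP 2 had 3600. Lanes 2 and 5 held only IP and lanes 1 and 3 only unbound libraries, so that lane and group cannot be told apart.

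Of the 8 genes, 7 rose in IP and none fell (edgeR quasi-likelihood test, adjusted p at 0.05), where 20.5% of all 17654 genes tested were called higher and 18.9% lower. All 8 passed the filter on low counts. In those 7 genes every IP library lay above every unbound library, which held for 25.1% of all genes tested. Pdgfra overlapped between the groups and did not pass. The median log2 fold change of the 8 was 2.72, beside -0.10 over all genes tested. Together they took 0.0374% ± 0.00224 of the counts in IP (SD, n = 3) and 0.00393% ± 0.00146 in unbound (SD, n = 4). IP and unbound are captured and left-over RNA, and in such bulk samples RNA per cell and number of cells of a type cannot be told apart. The number called higher was 4 without IP 2, where Lum, Ogn and Aldh1a2 lost their calls, and 5 without IP 1 and without IP 4. Of all genes tested, 15.2% were higher without IP 2, 16% without IP 1 and 18% without IP 4. Within index sequence ACAGTG (IP 1 and 2, unbound 1 and 2) the number of the 8 called higher was 5, beside 12.4% of all genes. Within index GTGAAA (IP 4, unbound 3 and 4, where the spread of the single IP library is taken from the unbound pair) it was 7. The labels do not say that the libraries came from separate animals, so the p-values measure the spread between these libraries, which may be technical.

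**Figure D1:**
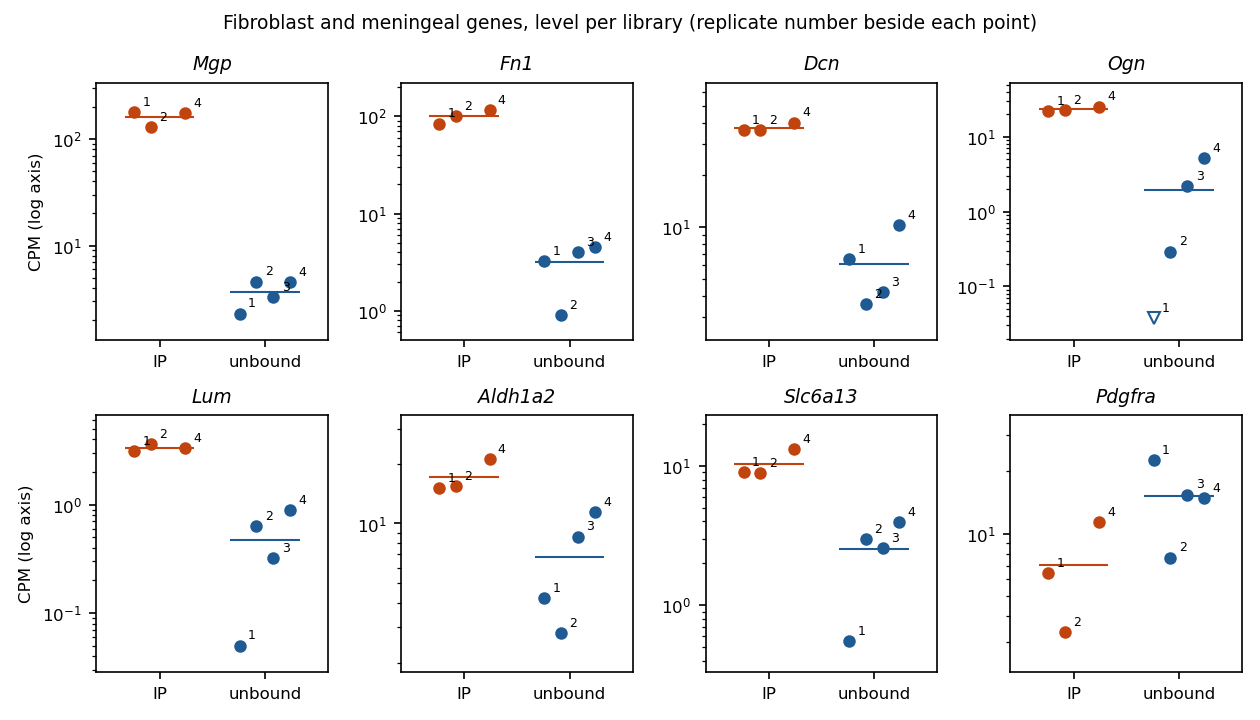
Level of each of the 8 genes in CPM (log axis) in the 3 IP (orange) and 4 unbound (blue) libraries, with the replicate number beside each point and a line at the group mean. The open triangle is a library with no reads, drawn at the level of 3 counts. The IP libraries lie above all unbound libraries in every panel but that of Pdgfra.

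**Figure D2:**
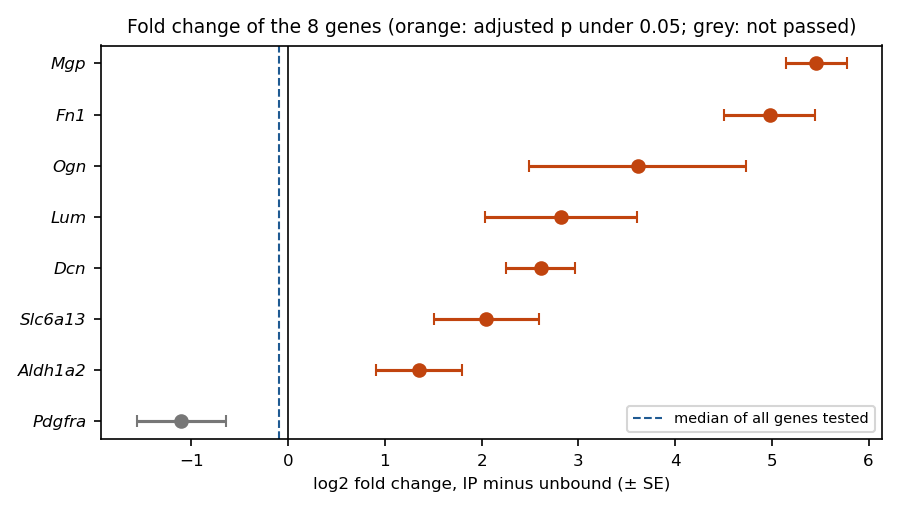
Log2 fold change of IP over unbound with its standard error for each of the 8 genes, against the median of all genes tested (dashed). The values run from -1.10 for Pdgfra to 5.46 for Mgp.

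The vascular and fibroblast matrix genes Mgp and Fn1 had the highest fold changes of the 8, though Ogn was above both with limma voom, with the index sequence as a covariate and within index ACAGTG. Mgp encodes matrix Gla protein, a small vitamin K-dependent protein that inhibits calcification and binds bone morphogenetic proteins (BMPs). It measured 180, 129 and 174 CPM in IP 1, 2 and 4, and 2.29, 4.57, 3.28 and 4.52 CPM in unbound 1 to 4. The lowest IP library was thus far above the highest unbound one. Its log2 fold change was 5.46 ± 0.31 (SE; adjusted p = 1.36e-06), and it stayed between 5.28 and 5.61 when any 1 library was left out. Mgp lies on chromosome 6 from 136872435 to 136875823 (GRCm38, minus strand, 4 exons after merging transcripts).

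Fn1 encodes fibronectin, a large glycoprotein that links cells to the matrix through integrins. It had 84, 101 and 115 CPM in IP 1, 2 and 4, and 3.27, 0.911, 3.99 and 4.54 CPM in unbound 1 to 4. The IP libraries were close to each other, and unbound 2, with 53 counts, was the low one among the unbound. The log2 fold change was 4.98 ± 0.47 (SE; adjusted p = 2e-05). Fn1 lies on chromosome 1 from 71585520 to 71653200 (minus strand), and 2.5% of its exonic bases overlap an antisense gene, whose reads cannot be separated without a stated strand setting.

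The 3 small leucine-rich proteoglycans among the 8, Dcn, Lum and Ogn, all rose. They were even across IP libraries and uneven across unbound ones. The SD of log2 CPM over unbound libraries was larger than in 67.7% of all genes tested for Dcn and 93.6% for Lum. Over IP libraries it was larger than in 7.3% and 10.3%. Dcn encodes decorin, which binds collagen and sequesters TGF-beta. Its level was 36.2, 36.2 and 40.2 CPM in IP 1, 2 and 4, and 6.53, 3.57, 4.21 and 10.3 CPM in unbound 1 to 4. The unbound libraries spread over a 2.87-fold range and stayed below all IP libraries. The log2 fold change of Dcn was 2.61 ± 0.36 (SE; adjusted p = 0.000268).

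Lum encodes lumican, a keratan sulfate proteoglycan that sets fibril spacing. It had the lowest mean CPM of the 8 in IP, with 233, 206 and 169 counts in IP 1, 2 and 4, or 3.11, 3.59 and 3.32 CPM. Unbound 1 to 4 had 4, 37, 17 and 50 counts, or 0.0501, 0.636, 0.323 and 0.882 CPM. The unbound libraries thus differed 17.6-fold from highest to lowest, against 1.16-fold in IP. The log2 fold change was 2.82 ± 0.78 (SE; adjusted p = 0.0157). It did not pass without IP 2 (adjusted p = 0.0531), nor within index ACAGTG (3.30 ± 1.26, adjusted p = 0.111), but passed within index GTGAAA (2.47 ± 0.68, adjusted p = 0.00574).

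Ogn encodes osteoglycin, also called mimecan, a related proteoglycan of connective tissue. It had 22.1, 23 and 25.4 CPM in IP 1, 2 and 4. In unbound 1 not a single read was counted, where 3 counts would be 0.0376 CPM, and unbound 2, 3 and 4 had 17, 116 and 295 counts, or 0.292, 2.2 and 5.21 CPM. No other of the 8 genes was at 0 in any library. The SD of its log2 CPM over unbound libraries was 3.42, larger than in 99.97% of all genes tested, and over IP libraries it was 0.10, larger than in 10% of them. Its log2 fold change of 3.62 ± 1.12 (SE; adjusted p = 0.0259) therefore carried the largest error of the 8. It lost its call without IP 1, IP 2, IP 4 or unbound 3 (adjusted p = 0.0519, 0.0609, 0.0536 and 0.0543), with DESeq2 (0.0652) and with no filter on low counts (0.0731). The estimate was 4.84 without unbound 4, 6.29 with limma voom and 5.63 with the index sequence as a covariate, all past the threshold. Within index ACAGTG it was 7.35 ± 1.34 (adjusted p = 0.0165) and within index GTGAAA 2.79 ± 0.40 (adjusted p = 5.84e-05). These values do not overlap within their errors, and their difference was not tested.

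**Figure D3:**
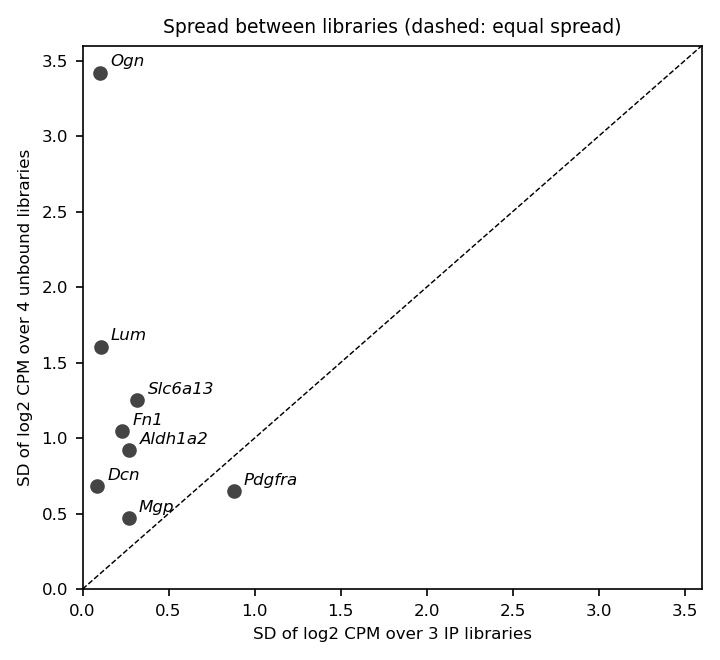
Spread between libraries of each of the 8 genes, as the SD of log2 CPM over the 3 IP libraries (x axis) and over the 4 unbound libraries (y axis). All but Pdgfra lie above the dashed line of equal spread, and Ogn is farthest from it. The unbound SD was larger than in 46.8% (Mgp) to 99.97% (Ogn) of all genes tested.

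The uneven unbound levels did not follow 1 library. Unbound 1 was the lowest for Lum, Ogn, Mgp and Slc6a13 and the highest for Pdgfra. Unbound 2 was the lowest for Fn1, Dcn, Pdgfra and Aldh1a2. Unbound 4 was the highest for Fn1, Dcn, Lum, Ogn, Aldh1a2 and Slc6a13. The 8 genes summed to 39.5, 23.4, 40.6 and 55.6 CPM in unbound 1 to 4. In IP 1, 2 and 4 they summed to 356, 320 and 404 CPM.

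The meningeal genes Aldh1a2 and Slc6a13 had the smallest rises. Aldh1a2 encodes the retinaldehyde dehydrogenase that makes most retinoic acid in the meninges. It measured 15, 15.4 and 21.1 CPM in IP 1, 2 and 4, and 4.2, 2.82, 8.6 and 11.4 CPM in unbound 1 to 4. The groups did not overlap, but unbound 4 came near the lowest IP library. The log2 fold change was 1.35 ± 0.44 (SE; adjusted p = 0.0327). It did not pass without IP 1, IP 2, IP 4 or unbound 1 (adjusted p = 0.0587, 0.0682, 0.0988 and 0.0664). It was 2.12 ± 0.42 within index ACAGTG and 1.10 ± 0.30 within index GTGAAA, both past the threshold (adjusted p = 0.0208 and 0.00539).

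Slc6a13 encodes GAT2, a plasma membrane carrier of GABA and taurine found in the leptomeninges. Its level was 9.07, 8.92 and 13.2 CPM in IP 1, 2 and 4, and 0.551, 2.97, 2.58 and 3.97 CPM in unbound 1 to 4. Unbound 1 was low and the other unbound libraries were near each other, all under the IP libraries. The log2 fold change was 2.05 ± 0.54 (SE; adjusted p = 0.0126). Within index ACAGTG it did not pass (2.36 ± 0.84, adjusted p = 0.0948), and within index GTGAAA it did (2.03 ± 0.38, adjusted p = 0.000201).

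Pdgfra, a receptor for PDGF-A and PDGF-C among other ligands, was the exception. It had 6.43, 3.35 and 11.4 CPM in IP 1, 2 and 4, and 22.6, 7.65, 15.4 and 14.8 CPM in unbound 1 to 4. IP 4 lay above unbound 2, so the groups overlapped. The log2 fold change was -1.10 ± 0.46 (SE; adjusted p = 0.0809). It passed as lower without IP 4 (-1.62, adjusted p = 0.0285), without unbound 2 (-1.33, adjusted p = 0.029) and with DESeq2 (adjusted p = 0.0413). Within index ACAGTG it was -1.63 ± 0.65 (adjusted p = 0.124) and within index GTGAAA -0.39 ± 0.30 (adjusted p = 0.315). About 4.55% of its exonic bases overlap an antisense gene.

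Genes of oligodendrocyte precursors moved with Pdgfra in direction. Of 14 such markers, 10 fell (71.4%, beside 18.9% of all genes tested) and 1 rose, with a median log2 fold change of -1.42. Their sum was 255 to 355 CPM in IP and 474 to 608 CPM in unbound. The number lower was 6 without IP 1 and 6 without IP 2. The transcription factor Olig1, the most abundant, fell by 0.80 on the log2 scale (adjusted p = 0.0192, but between 0.0614 and 0.102 without IP 1, IP 2 or unbound 3). Cspg4, the NG2 proteoglycan, which pericytes carry too, rose by 3.55 ± 0.23. None of the 14 was at 0 in any library. All 10 oligodendrocyte and all 10 pan-neuronal markers fell as well (median log2 fold change -2.48 and -1.60). The part of any of these cells in the value of Pdgfra was not tested.

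Per kilobase of merged exons, the 8 genes kept a different order in the groups. In IP the level of Mgp was 136 ± 23.8 CPM per kb (SD, n = 3), followed by Ogn at 9.15 ± 0.664, Fn1 at 8.56 ± 1.33, Aldh1a2 at 7.59 ± 1.5, Dcn at 6.43 ± 0.391, Slc6a13 at 3.58 ± 0.834, Lum at 1.36 ± 0.0986 and Pdgfra at 0.703 ± 0.403. Neighbours from Ogn to Dcn did not differ beyond their SDs, while Mgp stood above and Slc6a13, Lum and Pdgfra each stood below. In unbound RNA the levels of all but Pdgfra were lower. Mgp had 3.09 ± 0.92 CPM per kb (SD, n = 4), Aldh1a2 2.98 ± 1.74, Pdgfra 1.51 ± 0.61, Dcn 1.05 ± 0.519, Slc6a13 0.867 ± 0.495, Ogn 0.75 ± 0.934, Fn1 0.272 ± 0.137 and Lum 0.193 ± 0.148. No 2 neighbours in this order differed beyond their SDs.

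Promoter sequence was at hand for 4 of the 8 genes, Ogn, Pdgfra, Aldh1a2 and Slc6a13 (RefSeq, GRCm38.p6). The 250 bases before the start are shown for Ogn, the gene with the most uneven unbound level, for Aldh1a2, the gene with the smallest rise, and for Pdgfra, which did not rise. Capitals mark matches to 5 motifs searched on both strands: the TATA box core TATAAA, the CCAAT box (its name being its letters), the GC box core GGGCGG, the AP-1 core TGANTCA and the forkhead core TGTTTAC.
Ogn (chr13:49607765-49608014, plus strand): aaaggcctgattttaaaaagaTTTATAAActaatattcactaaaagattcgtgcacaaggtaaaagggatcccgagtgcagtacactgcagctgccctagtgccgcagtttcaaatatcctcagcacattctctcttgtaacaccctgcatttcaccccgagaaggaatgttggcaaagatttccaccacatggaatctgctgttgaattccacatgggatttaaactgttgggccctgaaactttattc
Aldh1a2 (chr9:71215539-71215788, plus strand): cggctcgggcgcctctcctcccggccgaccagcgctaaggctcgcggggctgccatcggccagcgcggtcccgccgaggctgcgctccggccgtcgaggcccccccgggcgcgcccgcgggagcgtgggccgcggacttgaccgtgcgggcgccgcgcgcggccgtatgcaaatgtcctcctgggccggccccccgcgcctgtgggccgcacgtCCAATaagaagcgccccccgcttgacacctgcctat
Pdgfra (chr5:75152001-75152250, plus strand): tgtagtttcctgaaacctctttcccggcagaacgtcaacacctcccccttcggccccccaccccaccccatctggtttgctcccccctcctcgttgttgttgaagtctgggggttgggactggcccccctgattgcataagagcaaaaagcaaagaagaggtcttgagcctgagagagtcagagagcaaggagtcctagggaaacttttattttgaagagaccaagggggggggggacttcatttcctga
The windows differed in base composition. GC content was 42% for Ogn, 54.4% for Pdgfra, 60.8% for Slc6a13 and 77.6% for Aldh1a2, beside a median of 52.4% over 32817 promoters, and the CpG count was 4, 4, 9 and 40. TATAAA was found in Ogn, on both strands in overlapping matches, with the plus-strand match beginning 227 bases before the start, and in 12.4% of all promoters. CCAAT was found in Aldh1a2, 36 bases before the start, and in 33.8% of all promoters. GGGCGG was found in Slc6a13 and in 32.7%, while TGANTCA (6.75%) and TGTTTAC (3.16%) matched none of the 4 windows. A match is only a description of these letters.

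Dcn, Lum and Ogn sit in 2 gene clusters with other leucine-rich proteoglycans. Dcn, Lum, Kera and Epyc follow each other on chromosome 10 between 97479609 and 97682454, all on the plus strand, and Ecm2, Aspn, Omd and Ogn on chromosome 13 between 49504810 and 49624501, also all on the plus strand. Ogn lies inside Cenpp, which is on the other strand, and shares no exonic base with it. In the chromosome 10 cluster, Dcn and Lum rose, Kera (keratocan, of the cornea) had no read in any library, and Epyc (epiphycan, of cartilage) fell by 3.67 on the log2 scale (adjusted p = 0.0356) where IP 1 had no count, IP 2 and IP 4 had 2 each, and the unbound libraries had 31, 15, 22 and 13. With so few IP counts the size of the fold depends on the prior count. That call was lost without IP 1, IP 2, IP 4, unbound 3 or unbound 4 (adjusted p between 0.0526 and 0.129) and within either index sequence (adjusted p = 0.152 and 0.186). In the chromosome 13 cluster, Aspn (asporin) rose by 7.50 ± 0.77, Ecm2 by 5.86 ± 0.42 and Ogn by 3.62, while Omd (osteomodulin) had 1.76 ± 1.29 (adjusted p = 0.3) at 1.06 ± 0.585 CPM in IP.

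Of all 17 small leucine-rich proteoglycans, 15 could be tested, 8 rose and 1 fell. That was 53.3% higher and 6.67% lower, beside 20.5% and 18.9% of all genes tested, with a median log2 fold change of 2.17. Without IP 2 the number higher was 5, where 15.2% of all genes tested were higher. Apart from Dcn, Lum and Ogn, the risers were Aspn, Ecm2, Bgn (biglycan, 4.85 ± 0.45), Prelp (3.38 ± 0.28) and Tsku (tsukushi, 2.17 ± 0.63). Per kilobase, Prelp (26.9 ± 2.5 CPM per kb, SD, n = 3), Bgn (19.9 ± 1.85), Ecm2 (16.9 ± 3.68) and Aspn (13.4 ± 6.15) had higher mean IP levels than Ogn. Tsku lost its call without IP 2 (adjusted p = 0.114) or unbound 4 (adjusted p = 0.0517), and within both index sequences (adjusted p = 0.0939 and 0.0634). Fmod (fibromodulin) had 1.16 ± 0.50 (adjusted p = 0.0904, and 0.0463 without unbound 4). Omd, Podn, Nyx, Chad and Optc did not pass, with values between -1.22 for Optc and 1.76 for Omd, and Kera and Podnl1 had too few counts.

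**Figure D4:**
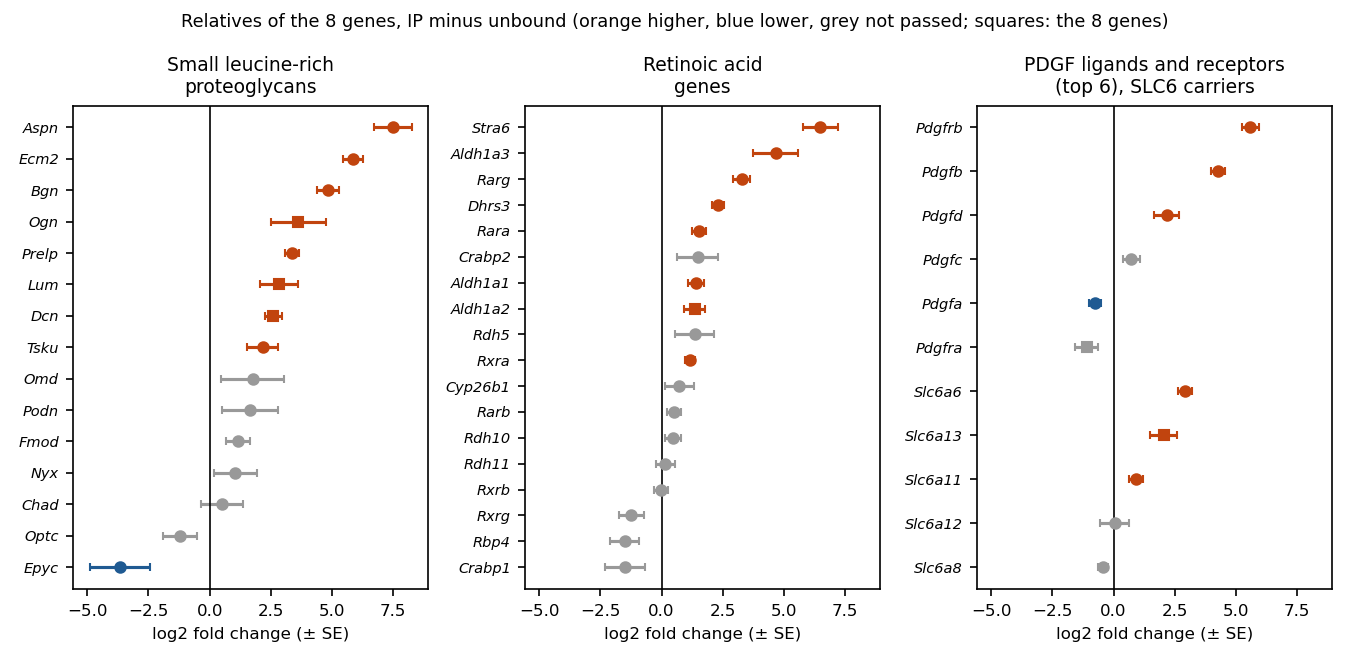
Log2 fold change of IP over unbound with its standard error for named relatives of the 8 genes: small leucine-rich proteoglycans, retinoic acid genes, PDGF genes and SLC6 carriers. Squares mark the 8 genes, orange and blue points passed the test as higher and lower, and grey points did not pass. Aspn (7.50), Stra6 (6.48) and Pdgfrb (5.59) head their panels.

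Around Aldh1a2, 9 of 19 tested genes of retinoic acid synthesis, breakdown, transport and reception rose, Aldh1a2 included, and none fell. That was 47.4% higher, beside 20.5% of all genes tested, with a median log2 fold change of 1.35. The other retinaldehyde dehydrogenases moved the same way. Aldh1a1 rose by 1.42 ± 0.33, from 133 ± 51.9 to 354 ± 33.8 CPM, and Aldh1a3 by 4.67 ± 0.92, from 0.157 ± 0.137 to 4.01 ± 0.394 CPM. Stra6, the receptor that takes retinol from its carrier in blood, had the highest fold change of the list (6.48 ± 0.71), with 122 CPM in IP 4, 54.7 in IP 1 and 43.2 in IP 2. The retinaldehyde reductase Dhrs3 rose by 2.30 ± 0.23.

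Among the receptors, Rara (1.53 ± 0.29), Rarg (3.27 ± 0.35) and Rxra (1.17 ± 0.21) rose. Rara did not pass within index ACAGTG (adjusted p = 0.0724). Rarb (0.50 ± 0.28), Rxrb (-0.01 ± 0.29, which changed sign under other scalings) and Rxrg (-1.25 ± 0.51) did not pass, though Rxrg passed as lower without IP 4 (adjusted p = 0.0449) or unbound 1 (adjusted p = 0.0281). Rdh10, the retinol dehydrogenase that supplies Aldh1a2, had 0.47 ± 0.34 (adjusted p = 0.3), Rdh5 1.35 ± 0.78 (adjusted p = 0.0321 without unbound 2) and Rdh11 0.15 ± 0.39. The carrier genes Crabp1 (-1.50 ± 0.82), Crabp2 (1.47 ± 0.82, adjusted p = 0.025 without unbound 4) and Rbp4 (-1.50 ± 0.59, adjusted p = 0.03 without IP 4) did not pass. Of the enzymes that break retinoic acid down, Cyp26b1 had 0.73 ± 0.61 (adjusted p = 0.365) with 17.6 CPM in IP 4 against 1.53 in IP 1. It was 1.25 at most and -0.34 at least when 1 library was left out. Within index GTGAAA, with IP 4 as the only IP library, it was 1.62. Cyp26a1 and Cyp26c1 had no reads in IP and could not be tested.

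In the PDGF family the receptors parted. Pdgfrb, the receptor of pericytes, rose by 5.59 ± 0.35 from 2.92 ± 1.18 to 140 ± 22 CPM, whereas Pdgfra did not pass. Of the ligands, Pdgfb (4.26 ± 0.29) and Pdgfd (2.17 ± 0.53) rose. Pdgfa, a ligand of Pdgfra, fell by 0.76 on the log2 scale (adjusted p = 0.0218), but not without IP 1, IP 2, IP 4 or unbound 3 (adjusted p between 0.0508 and 0.0968) nor within either index sequence. Pdgfc, another ligand of Pdgfra, had 0.72 ± 0.35 (adjusted p = 0.127, and 0.0468 without unbound 2).

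Among the 6 SLC6 carriers of GABA, betaine, taurine and creatine, 3 rose, Slc6a13 included, or 50%, beside 20.5% of all genes tested. Within index ACAGTG 1 rose, where 12.4% of all genes tested there did. Slc6a6, the taurine carrier, rose by 2.93 ± 0.28 to 659 ± 102 CPM, more than Slc6a13 by point estimate. Slc6a11, the astrocyte GABA carrier GAT3, rose by 0.90 ± 0.29 (adjusted p = 0.0289), a call lost without IP 1, IP 2, IP 4, unbound 3 or unbound 4 (adjusted p between 0.051 and 0.112). The betaine carrier Slc6a12 (0.05 ± 0.60, of either sign when 1 library was left out) and the creatine carrier Slc6a8 (-0.43 ± 0.21, adjusted p = 0.0353 without unbound 2) did not pass.

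Other fibroblast genes rose in part. Over all genes tested, 20.5% rose and 18.9% fell. Of 23 further perivascular fibroblast genes tested, 13 (56.5%) rose and 1 (4.35%) fell, with a median log2 fold change of 1.93. Cxcl12, a chemokine that endothelial cells also make, had the smallest p and the highest mean level of them (5.78 ± 0.32, from 5.36 ± 1.73 to 294 ± 14.7 CPM), and Sfrp1, a Wnt inhibitor, fell by 1.93 on the log2 scale. Of 23 meningeal genes tested, 11 (47.8%) rose and 1 (4.35%) fell, median 1.46. Within index ACAGTG 7 rose, where 12.4% of all genes tested there did. The forkhead factor Foxc1, which pericytes express as well, rose by 6.16 ± 0.26, and the adhesion molecule Alcam fell by 1.16. Ptgds, the prostaglandin D2 synthase of the arachnoid, had -0.27 ± 0.55, with 1017 CPM in IP 4 while IP 1 had 250 and IP 2 had 237 (-1.30 without IP 4, adjusted p = 0.0499, and 0.07 and 0.09 without IP 1 and IP 2). The carriers Slc22a6, Slc13a4 and Slc47a1, chosen after their values were seen, did not pass, with 0.78 ± 0.81, 1.11 ± 0.67 and 1.77 ± 1.12. They are not all the carriers of the list, and the others are not described here. Slc13a4 passed without unbound 4 (adjusted p = 0.0424), with the index sequence as a covariate (1.65, adjusted p = 0.00549) and within index GTGAAA (1.23, adjusted p = 0.0136).

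Of 16 fibroblast collagens, 5 rose (31.2%, near the 20.5% of all genes tested) and none fell, at a median log2 fold change of 0.54. Within index ACAGTG 2 rose, where 12.4% of all genes tested there did. Col1a2, a chain of type I collagen, rose by 2.16 ± 0.35 from 3.55 ± 1.17 to 15.9 ± 3.52 CPM. Its partner chain Col1a1, named after its values were seen, had 1.35 ± 0.54 (adjusted p = 0.0678) at 2.69, 3.05 and 7.41 CPM in IP 1, 2 and 4, and passed with DESeq2 (adjusted p = 0.0314) and within index GTGAAA (adjusted p = 0.00437).

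Of 17 elastic fibre and microfibril genes, 8 (47.1%) rose and 1 (5.88%) fell, beside 20.5% and 18.9% of all genes tested. Ltbp4, a latent TGF-beta binding protein, rose by 3.74 ± 0.26, and Ltbp3 fell by 1.08, though not without IP 1 or IP 2 (adjusted p = 0.0606 and 0.0645). The number higher was 4 or 5 without IP 2, IP 4, unbound 3 or unbound 4, where 15.2% to 18.8% of all genes tested were higher. Within index ACAGTG it was 1, where 12.4% of all genes tested were higher. Of 15 receptors and partners of fibronectin, 8 (53.3%) rose and 1 (6.67%) fell. The transglutaminase Tgm2, which cross-links fibronectin, rose by 5.88 ± 0.34 from 3.01 ± 1.24 to 177 ± 27.7 CPM, and Fndc1 fell by 1.99, though not within index ACAGTG, where its adjusted p was 0.163 and 5 of the list rose.

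Around Mgp, 3 of 10 vitamin K-dependent proteins and carboxylation enzymes rose and 2 fell, Mgp included, or 30% and 20%, near the 20.5% and 18.9% of all genes tested. Gas6, a ligand of TAM receptors, rose by 0.96 ± 0.21, and Vkorc1l1, which recycles vitamin K, fell by 0.998 on the log2 scale. Within index ACAGTG neither passed (adjusted p = 0.0711 and 0.0601). The number lower was 1 when any 1 library but unbound 2 was left out. Of 11 BMP ligands and receptors, 5 (45.5%) rose and none fell. Endoglin, Eng, an endothelial co-receptor, rose by 7.08 ± 0.36, and the most abundant, Bmpr2, had 0.64 ± 0.34 (adjusted p = 0.157).

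**Figure D5:**
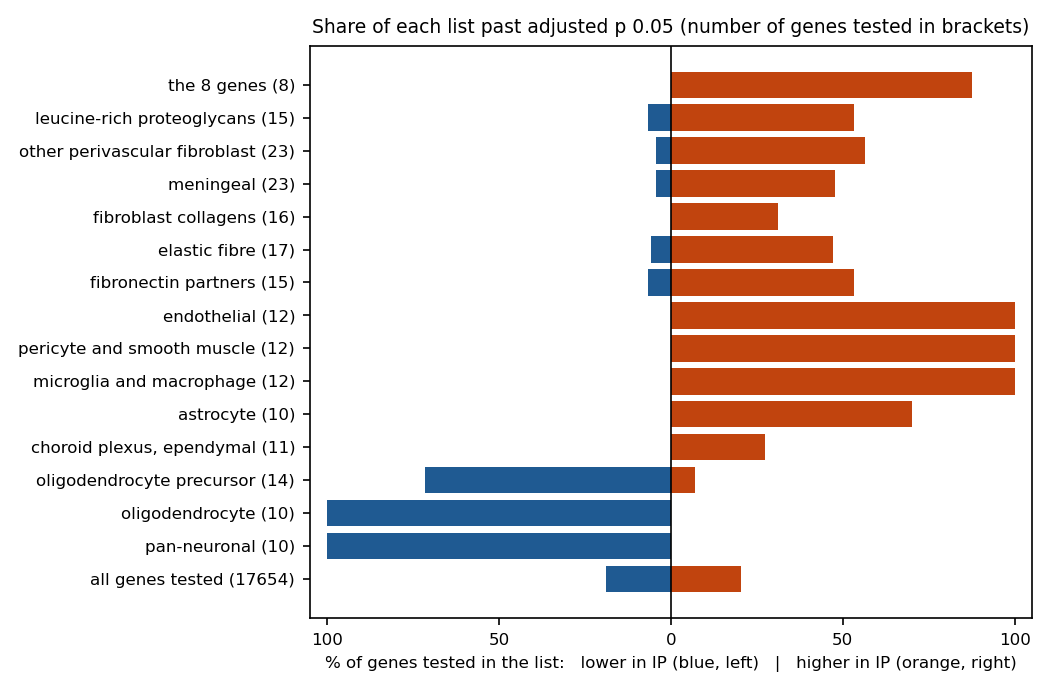
Share of the tested genes of each list that passed as higher (orange, right) or lower (blue, left) in IP, with the number tested in brackets. The 8 genes had 87.5% higher, endothelial, mural and macrophage markers 100%, fibroblast collagens 31.2% and all genes 20.5%.

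Markers of other cells moved with these genes. Endothelial markers summed to 1985 to 2516 CPM in IP and 17.6 to 23.4 CPM in unbound (median log2 fold change 6.93). Pericyte and smooth muscle markers summed to 3998 to 5682 and 30.7 to 50.2 CPM (median 6.48), and microglia and macrophage markers to 1450 to 1550 and 45.4 to 80.7 CPM (median 4.82). In the edgeR fit of all libraries by group alone, these medians lay above the fold changes of Dcn, Lum, Ogn, Aldh1a2 and Slc6a13. Ogn was 6.29 with limma voom, 5.63 with the index sequence as a covariate and 7.35 within index ACAGTG. The medians of the lists in those fits are not given here. Higd1b and Pf4 had no reads in unbound 1, and no other marker of these 3 lists was at 0 in any library. Choroid plexus and ependymal markers gave 3 higher of 11 (27.3%, near the 20.5% of all genes tested), but 1 without IP 1 and 1 within index ACAGTG, and summed to 102 to 315 CPM in IP and 66.5 to 85.6 CPM in unbound. Ttr, the transthyretin of the choroid plexus, had 82.5, 10.2 and 237 CPM in IP 1, 2 and 4 and rose by 3.33 ± 1.19 (adjusted p = 0.0462), but not without IP 1, IP 4, unbound 1 or unbound 4 (adjusted p between 0.0688 and 0.208). Of 10 astrocyte markers 7 rose (3 within index ACAGTG), with sums of 2275 to 2932 CPM in IP and 634 to 1532 CPM in unbound, and all 10 oligodendrocyte markers fell. The part of any of these cells in the values of the 8 genes was not tested.

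Likeness of profile was measured as the root mean square difference of log2 CPM over the 7 libraries, each gene centred on its own mean. Candidates were 13458 tested genes with a mean of at least 1 CPM. Symbols of Gm with digits, ending in Rik, or of capitals followed by a long number were passed over. Nearest to Mgp were S100a11 (0.20), Cybb (0.26) and Trim30a (0.28), and to Fn1 Ephb4 (0.25), Uaca (0.30) and Pik3cg (0.32). Nearest to Dcn were Maf (0.22), Kank2 (0.27) and Crtc3 (0.29), and to Lum Icosl (0.27), Mr1 (0.29) and Tnfrsf10b (0.35). Ogn had no close neighbour, with Ptpn22 at 0.73, Sebox at 0.79 and Fam46c at 0.88. Aldh1a2 was nearest to Rfx4 (0.25), Smc1a (0.27) and Tbc1d8b (0.29), and Slc6a13 to Creb3l1 (0.26), Skap2 (0.28) and Ccnjl (0.28). Pdgfra was nearest to Nrg3, Tmem132b and Hipk4 (each 0.21). Among the 8 genes themselves the closest pair was Lum and Slc6a13 (0.57), followed by Dcn and Aldh1a2 (0.76), and the farthest was Ogn and Pdgfra (4.06).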

How the data were processed

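The authors deposited 1 file per library with whole-number read counts per gene symbol, not normalized. Per the submitters' processing notes, reads were aligned with STAR 2.0.0e to mm10, and HTSeq did the counting; the sources used do not give an annotation, a strand setting or a read filter. Of each file, 6 rows that name no gene were left out. Reads outside any gene made up 16.6% ± 2.78 of reads in IP and 12.2% ± 0.708 in unbound (SD, n = 3 and 4), and reads in more than 1 gene 1.55% ± 0.107 and 9.95% ± 1.89, which may shift overlapping genes.

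Counts were tested in R 4.3.3 with edgeR 4.0.16 (filterByExpr, TMM, robust quasi-likelihood test, 2-sided, Benjamini-Hochberg over 17654 genes, threshold 0.05). CPM, log2 fold changes and standard errors were computed here. The lowest level that 3 counts represent was 0.0376 to 0.059 CPM. This limit reflects counting error alone, because PCR reads lacking molecular identifiers can repeat a molecule. No pair of libraries of a group agreed within sampling noise (chi-square per degree of freedom 77.7 or more). Positions and exon lengths came from GENCODE M21 (GRCm38). On counts simulated for the IP and unbound libraries (17654 genes, 200 of them changed), the test recovered 54% of 4-fold and 6% of 2-fold changes. In that simulation 1 of 61 calls was an unchanged gene. Far more genes were called in the data (3622 higher and 3328 lower), so the adjustment was stricter in the simulation. These shares are therefore not the recovery to be had in the data.

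The 8 genes and all lists were chosen with earlier results of these data known. Slc22a6, Slc13a4, Slc47a1 and Col1a1 were named outside the rule that follows, after their values were seen. Named were the 8 genes, Stard8, Rpl10a, the 3 genes most like each of the 8, the members of the proteoglycan, PDGF, retinoic acid and SLC6 lists (2 of them are not reported here), and of each other list described the gene with the smallest p, the most abundant gene and the leading gene against the majority. The fit was repeated with DESeq2 1.42.0, with limma voom (limma 3.58.1), with RLE or plain library size scaling, with every gene kept or only those at 5 CPM in 3 libraries, with replicate number or index sequence in the model, inside each index sequence, minus the 10 most abundant genes, and minus each library in turn.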

Additional observations from a re-analysis of the deposited data

Results flagged for a closer look

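In 5 of 112 sets of 4 unbound libraries 1 library lay far from the other 3 (Dixon's criterion, which chance meets in about 1 of 20 groups), and none of the 8 genes was among them. Unbound 4 was high for the proteoglycan Fmod (8.07 CPM, next 3.81). Unbound 2 was high for Podnl1 (0.137 CPM, next 0.019) and for the retinoic acid carrier Crabp1 (8.52 CPM, next 1.99), and low for Fndc1 (2.53 CPM, next 3.49). Unbound 1 was high for the muscle filament gene Des (3.71 CPM, next 0.93). Groups of 3 IP libraries were not examined in this way.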

How the results depend on the processing

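Over 18 alternatives none of the 8 genes changed direction. Of 143 values, 126 kept their side of the threshold, 13 lost the call and 4, all of Pdgfra, gained it. Fn1, Dcn and Mgp passed under every alternative. With the 10 most abundant genes left out the number called higher was 7 again, and with a filter of 5 CPM in 3 libraries, which removes Lum, it was 6. It ranged from 4 to 7 when each library was left out, and the number lower from 0 to 1. The number lower was 1 with DESeq2. The labels do not say whether IP and unbound libraries of 1 number share a homogenate. Deviations of same-numbered libraries correlated at -0.02, 0.04 and 0.16, and IP 1 was closest to unbound 2, so the libraries were treated as unpaired. With the replicate number as a block 7 of the 8 were higher and 1, Pdgfra, lower (-1.13, adjusted p = 0.0474), with 3154 genes higher and 2618 lower in all. In that blocked fit Ogn was 5.81, above Mgp (5.45) and Fn1 (5.32). Slc13a4 (1.55, adjusted p = 0.0206) and Rpl10a (1.37, adjusted p = 0.0394) passed there. Pdgfa, Olig1, Ltbp3 and Epyc did not (adjusted p = 0.0868, 0.0901, 0.0539 and 0.15). Over all genes, 3622 were higher and 3328 lower. Leaving out each library gave 2796 to 4050 higher and 1751 to 3632 lower, with the fewest lower without IP 2 and 1899 without IP 1. Within index ACAGTG 2190 were higher and 1650 lower. Scaling to library size alone moved the median of all genes by 0.10. Among 91 other named genes 20 of 1618 values changed sign, all of genes that had not passed. Rxrb was 0.00287 with RLE scaling and with DESeq2, 0.13 by library size, 0.045 with voom, 0.11 within index GTGAAA, and -0.15 to 0.28 with a library left out. Cyp26b1 was -0.00093 with voom, -0.16 within index ACAGTG, 1.62 within index GTGAAA, and -0.34 to 1.25 with a library left out. Within index GTGAAA Chad was -0.16, Nyx -0.067 and Ptgds 0.55. Within index ACAGTG Rdh11 was -0.094. With a library left out Rdh11 was -0.17 to 0.32, Slc6a12 -0.35 to 0.28 and Ptgds -1.30 to 0.085. The cause was not tested.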
